A study of Homo sapiens with 10 samples.

Results

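The genes described here are 54 genes of mitosis, chosen by name with earlier results of these data known. Their loci lie outside the chromosome segments that were shifted as blocks in some of these cell lines. For each symbol the RefSeq transcript with the highest mean FPKM (a read count per unit of transcript length and of library size) was taken, which gave 54 genes of the 27946 symbols in the table. All 54 also passed the filter on low values, which kept 13334 genes. RNA-Seq had been carried out on total RNA, depleted of rRNA, from EA.hy926, a human line made by fusing an umbilical vein endothelial cell with a cell of the lung carcinoma line A549. A first group held 3 homozygous CRISPR/Cas9 clones without the promoter of VEGFA-LNC, a lncRNA antisense to VEGFA, and a second group held 3 clones without VEGFC-LNC, a lncRNA upstream of VEGFC. Each deletion had 2 control libraries of its own, from EA.hy926 cells given the gRNAs but no Cas9, which were then selected as clones in parallel. No group was treated otherwise, and all cells grew in the same serum-containing medium. Each deletion clone is a single line, so that the deletion and the history of the clone cannot be told apart. The lncRNAs themselves were not analysed here.

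Mitosis is the division of the nucleus. Its genes are transcribed late in the cell cycle, from G2 into M phase, and their mRNAs are scarce in resting cells, which makes their summed level a common gauge of how many cells of a culture divide. The cyclin B kinase CDK1 starts mitosis after CDC25 phosphatases remove its inhibitory phosphates. Kinetochores then attach chromosomes to the spindle, the spindle checkpoint holds the anaphase-promoting complex until all are attached, and cytokinesis parts the daughter cells. Repression of these genes outside G2 and M runs through the DREAM complex, which binds the cell cycle genes homology region (CHR) of their promoters, often beside CCAAT boxes bound by NF-Y. In bulk RNA, fewer dividing cells and less mRNA in each dividing cell cannot be told apart.

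The promoters of 5 of the genes are shown because they hold these letters in different arrangements, and because CDC25B, which went its own way in the data, carries them too. They are RefSeq windows of GRCh38.p14, 5′ to 3′ in the direction of transcription, from 150 bases before the annotated start to 30 after it. Capitals mark the CHR letters TTTGAA or TTCGAA and the letters CCAAT, read on either strand (TTCAAA and ATTGG on the opposite one). The windows are those of BUB1 (chr2:110678034-110678213, minus strand), PRC1 (chr15:90994506-90994685, minus strand), KIF15 (chr3:44761644-44761823, plus strand), KIF20A (chr5:138178962-138179141, plus strand) and the single one of 4 windows of CDC25B with both motifs (chr20:3796160-3796339, plus strand).
BUB1: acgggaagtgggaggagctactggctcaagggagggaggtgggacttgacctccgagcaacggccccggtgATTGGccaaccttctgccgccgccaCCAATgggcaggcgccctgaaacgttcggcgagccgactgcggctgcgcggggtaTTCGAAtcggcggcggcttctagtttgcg
PRC1: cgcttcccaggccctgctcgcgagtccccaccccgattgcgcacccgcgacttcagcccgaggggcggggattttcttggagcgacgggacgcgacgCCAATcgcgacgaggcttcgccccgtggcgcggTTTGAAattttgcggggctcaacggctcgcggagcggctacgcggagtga
KIF15: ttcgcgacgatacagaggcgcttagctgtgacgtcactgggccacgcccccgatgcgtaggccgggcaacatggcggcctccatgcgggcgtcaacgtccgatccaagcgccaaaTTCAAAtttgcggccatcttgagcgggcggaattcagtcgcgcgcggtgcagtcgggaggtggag
KIF20A: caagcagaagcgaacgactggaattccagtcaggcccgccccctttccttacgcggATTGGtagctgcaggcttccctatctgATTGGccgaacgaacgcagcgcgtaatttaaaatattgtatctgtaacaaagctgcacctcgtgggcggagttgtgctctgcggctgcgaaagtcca
CDC25B: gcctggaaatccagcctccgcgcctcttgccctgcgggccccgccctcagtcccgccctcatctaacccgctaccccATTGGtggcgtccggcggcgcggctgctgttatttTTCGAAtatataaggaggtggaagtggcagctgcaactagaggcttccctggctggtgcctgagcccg

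Promoter windows of 300 bases, 250 before the start to 50 after, were at hand for 47 of the 54 genes, 57 windows in all. The CHR letters stood in 38 of the 57 windows (66.7%), against 16.4% of all 35116 windows of the reference. CCAAT stood in 38 (66.7%, against 34.6%), and 28 windows held both (49.1%, against 6.38%). The distance between the CHR and the nearest CCAAT can be read from the printed stretches. In PRC1 the first letters of these matches were 20 and 53 bases before the start, and in CDC25B 38 and 73 bases before it. BUB1 had its CHR 2 bases into the transcript with CCAAT boxes 54 and 79 bases before the start, KIF15 had the CHR alone and KIF20A a pair of CCAAT boxes alone. A match is only these letters, not a bound site.

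The 54 genes lay on 20 chromosomes. For each member, the median log2 FC (fold change) of up to 25 tested genes outside the members on each side was taken. It differed from that of all tested genes outside the members by -0.32 to 0.17 for the VEGFA-LNC deletion. The range was -0.24 to 0.24 for the VEGFC-LNC deletion and -0.26 to 0.31 between the control sets. Since the members were chosen to lie outside shifted segments, these values are not an independent check. The widest value for the VEGFA-LNC deletion, -0.32, was at SPC24, a kinetochore subunit whose own log2 FC was -0.42. The neighbours of MELK differed by 0.068, where MELK itself had a log2 FC of -0.12.

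The libraries held 6743973 to 24197629 reads. The smallest number of reads on a member in any library was 6, for SPC25, a kinetochore subunit. In 52 of the 54 members no library had fewer than 30 reads. The control libraries of a set were much more alike than clones were, with a chi-square per gene of 3.64 and 1.53 between the controls against 18.2 to 135.4 between clones. They differed by more than sampling noise and were counted as 2 samples each, but whether they are separate cultures is not given, and p-values then measure only the spread between these samples. Of 13 endothelial markers 12 were tested, and CLDN5, a tight junction protein, was listed at 0 in all libraries. Their summed level was 700.9 and 713.8 FPKM in the VEGFA-LNC controls, 509.9, 1299 and 935.0 in clones 1, 2 and 3, 813.9 and 796.0 in the VEGFC-LNC controls and 760.4, 1110 and 1419 in the clones. The lung epithelial markers (3 of 10 tested, with KRT8 and KRT18 the most abundant and NKX2-1 listed at 0) summed to 197.3 to 784.9 FPKM, highest in VEGFA-LNC clone 1 and lowest in VEGFC-LNC clone 2. Fibroblast and smooth muscle markers (5 of 9 tested) summed to at most 60.7 FPKM and blood markers (2 of 8 tested, HBB listed at 0) to at most 54.2. Of the endothelial markers EMCN, a sialomucin of the endothelial surface, was called lower in the VEGFC-LNC deletion (log2 FC of -5.08, SE of 0.85, FDR by limma of 0.0467), and EGFL7 higher between the control sets. The median log2 FC of the tested endothelial markers in the VEGFC-LNC deletion was 0.40, opposite to EMCN. COL1A1 was called lower in the VEGFA-LNC deletion and, like ACTA2 and CD68, lower between the control sets. The sum of the fibroblast and smooth muscle markers was 21.0 and 20.7 FPKM in the VEGFA-LNC controls. It was 8.56, 41.7 and 60.7 in clones 1, 2 and 3, so that only clone 1 was lower. The endothelial sum was thus low where the mitosis genes were high in VEGFA-LNC clone 1, and the epithelial sum was high there. The control sets did not go this way for the endothelial sum. The 54 genes summed to 1474 and 1451 FPKM in the VEGFC-LNC controls, against 618.1 and 604.5 in the VEGFA-LNC controls. The endothelial sum was also higher in the VEGFC-LNC controls. The part of these marker levels in the mitosis genes was not tested.

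In 53 of the 54 genes the first VEGFA-LNC clone lay above both of its controls while clones 2 and 3 lay below both. Of all tested genes, 15.0% had this arrangement. The exception among the members was CDC25B. Since the members were chosen with earlier results of these data known, these shares are a description. As the median over the 54 genes, clone 1 differed from the mean of its controls by 1.10 on the log2 scale, clone 2 by -2.13 and clone 3 by -1.39, where the medians of all tested genes were -0.03, -0.11 and -0.04. All fold changes here are on the log2(FPKM + 0.1) scale.

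In the VEGFC-LNC set all 54 genes were lower in each of the 3 clones than in both controls. Of all tested genes, 30.6% were. The median difference from the controls was -0.66 in clone 1, -2.74 in clone 2 and -1.55 in clone 3, and in 53 genes the clones stood in this order, an order found in 24.0% of all tested genes. CDC25B was again the exception to the order. In all 54 genes both VEGFC-LNC controls stood above both VEGFA-LNC controls, as did 33.7% of all tested genes. The highest of the 10 libraries was a VEGFC-LNC control in 48 genes and VEGFA-LNC clone 1 in the other 6. VEGFA-LNC clone 2 was the lowest of all libraries in 48 genes and VEGFC-LNC clone 2 in 5, namely CDC25C, CENPA, KIF20A, PTTG1 and CKAP2.

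**Figure D1:**
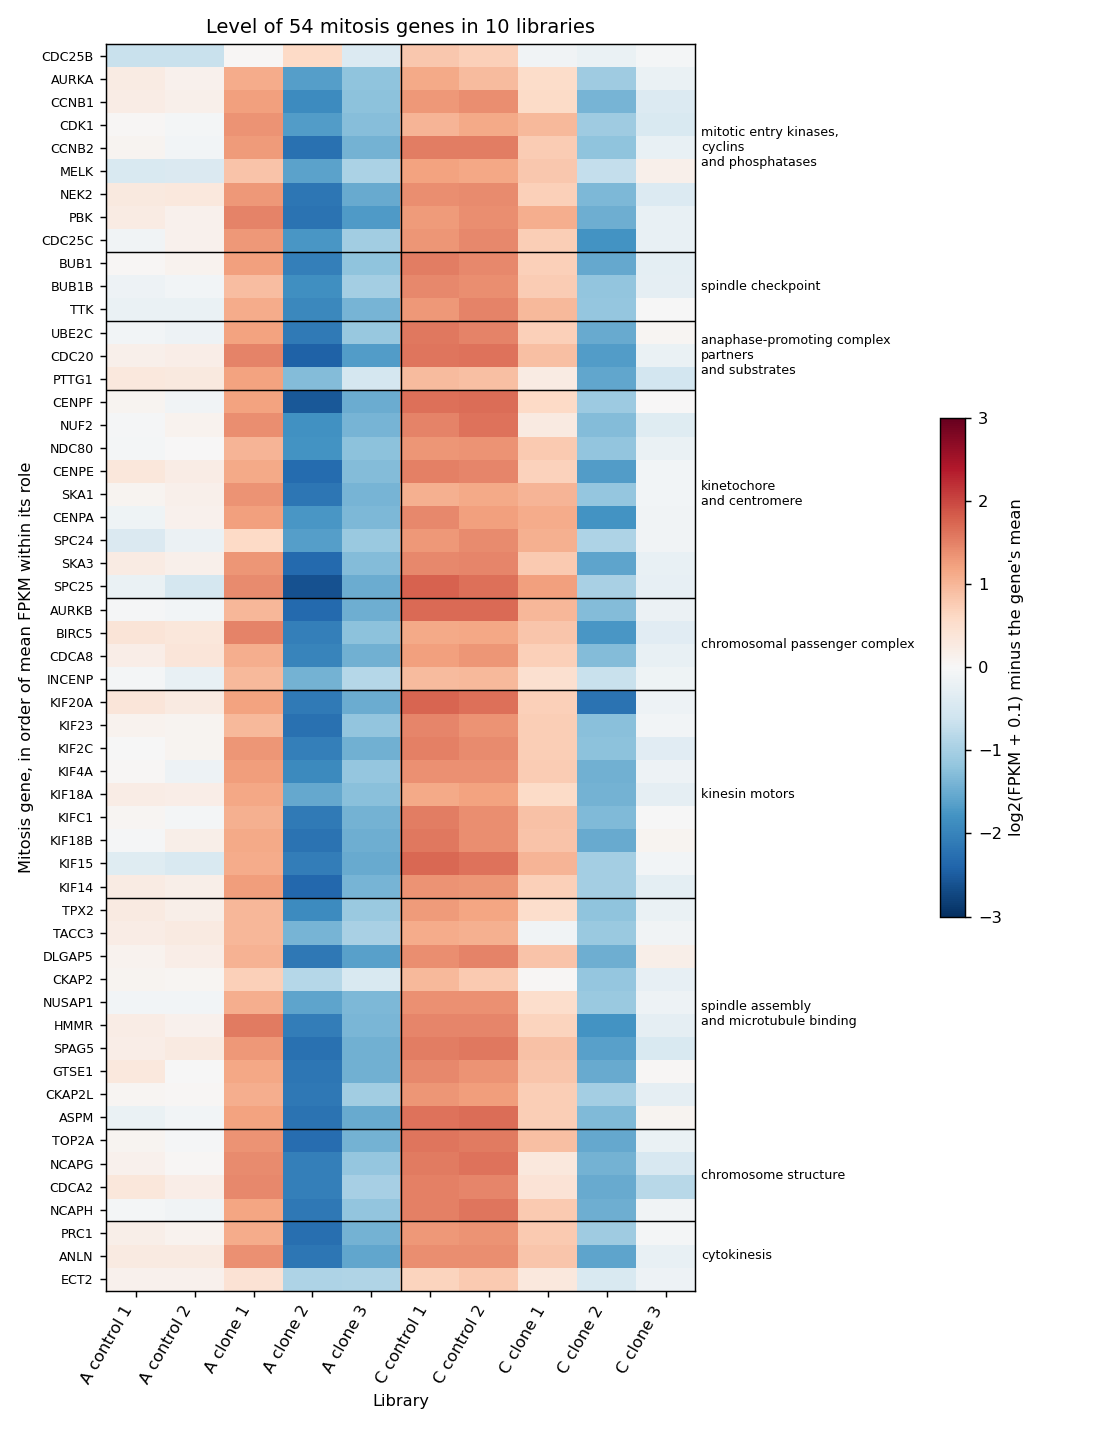
Level of the 54 mitosis genes (rows, grouped by role) in the 10 libraries (columns; A, VEGFA-LNC set; C, VEGFC-LNC set), as log2(FPKM + 0.1) minus the mean of the gene. All 54 genes are above their own mean in VEGFA-LNC clone 1 and in both VEGFC-LNC controls, and 52 in VEGFC-LNC clone 1. CDC25B, in the top row, is the 1 gene above its mean in VEGFA-LNC clone 2, the VEGFA-LNC controls are mixed (35 and 34 genes above), and 7 genes are above in VEGFC-LNC clone 3.

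The genes that start mitosis comprise CDK1, its cyclins CCNB1 and CCNB2, the phosphatases CDC25B and CDC25C, and the kinases AURKA, NEK2, MELK and PBK. The median log2 FC of these 9 genes was -0.77 for the VEGFA-LNC deletion and -1.54 for the VEGFC-LNC deletion. CDC25B had the highest mean level among them and is described further on. MELK had the VEGFA-LNC log2 FC closest to 0 of the genes that were lower, at -0.12.

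Of the checkpoint kinases BUB1, BUB1B and TTK, BUB1 had the highest level. BUB1, which recruits checkpoint proteins to the kinetochore, read 10.5 and 11.0 FPKM in the VEGFA-LNC controls, 24.2, 2.37 and 4.34 in clones 1, 2 and 3, 29.6 and 28.0 in the VEGFC-LNC controls, and 16.9, 3.43 and 8.35 in the VEGFC-LNC clones. The first VEGFA-LNC clone stood just under the VEGFC-LNC controls, and the second clones of both deletions stood lowest. Its group means were 10.7 ± 0.32 (SD, n = 2), 10.3 ± 12.1 (SD, n = 3), 28.8 ± 1.18 (SD, n = 2) and 9.55 ± 6.81 (SD, n = 3), in the same order. The mean of the VEGFA-LNC clones was thus close to that of their controls, although no clone was.

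UBE2C, the ubiquitin-conjugating enzyme of the anaphase-promoting complex, was the most abundant of the 3 genes around that complex, beside CDC20, its activator, and PTTG1, the securin that it degrades. Its FPKM was 26.9 and 25.5 in the VEGFA-LNC controls, 65.9, 6.50 and 12.8 in the clones, 85.3 and 80.0 in the VEGFC-LNC controls and 46.6, 9.89 and 29.6 in the clones. The third VEGFC-LNC clone was a little above the VEGFA-LNC controls for this gene.

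Among 9 kinetochore and centromere genes, CENPF, a large protein of the outer kinetochore, had the highest mean. CENPF was at 8.61 and 7.46 FPKM in the VEGFA-LNC controls and at 18.6, 1.30 and 2.82 in the clones, and at 25.6 and 25.9 in the VEGFC-LNC controls and 12.3, 3.74 and 8.08 in the clones. The widest span of all members was in this role too, with SPC25 28.9 times higher in its highest library than in its lowest, where it had 6 reads.

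AURKB, the kinase of the chromosomal passenger complex, which corrects faulty attachments, read 11.7 and 11.5 FPKM in the VEGFA-LNC controls and 24.3, 2.31 and 4.29 in the clones. In the VEGFC-LNC set it read 39.8 and 39.2 in the controls and 24.1, 4.82 and 10.8 in the clones. Clone 1 of one deletion and clone 1 of the other had nearly the same level of this gene, although the first lay above its controls and the second below. The row with the highest mean for AURKB was the noncoding transcript variant NR_132731, 1 of 11 rows of the gene, and over those rows the log2 FC ran from -0.88 to -0.80 for the VEGFA-LNC deletion and from -1.92 to -1.85 for the VEGFC-LNC deletion.

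Of 9 kinesins, KIF20A, a motor of the central spindle, had the highest mean and the lowest fitted log2 FC of all members in both deletions. It read 14.7 and 14.0 FPKM in the VEGFA-LNC controls, 26.9, 2.58 and 4.03 in the clones, 39.1 and 36.5 in the VEGFC-LNC controls and 19.0, 2.40 and 10.3 in the clones. KIF15, a motor that holds the spindle poles apart, had the largest difference between the control sets. Its FPKM was 2.19 and 2.06 in the VEGFA-LNC controls against 9.70 and 9.10 in the VEGFC-LNC controls, with 6.35, 0.61 and 0.95 in the VEGFA-LNC clones and 5.89, 1.36 and 2.72 in the VEGFC-LNC clones. For KIF15 the first clones of both deletions stood between the 2 control sets.

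TPX2, which activates AURKA on spindle microtubules, had the highest mean of the 54 genes, 52.1 FPKM over the 10 libraries. TPX2 was at 50.1 and 46.9 in the VEGFA-LNC controls, 82.7, 11.1 and 19.2 in the clones, 101.0 and 95.2 in the VEGFC-LNC controls and 60.3, 18.0 and 36.0 in the clones. The second clones were the lowest of their sets for this gene too.

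The chromosome structure genes are TOP2A, which untangles sister DNA, the condensin subunits NCAPG and NCAPH, and CDCA2. TOP2A read 24.2 and 22.6 FPKM in the VEGFA-LNC controls, 58.7, 4.60 and 8.52 in the clones, 69.7 and 68.2 in the VEGFC-LNC controls and 42.8, 7.82 and 20.1 in the clones. Over the 10 libraries its profile was the closest of all members to the median profile of the others (Pearson's r = 0.999). All genes here were read from the same 10 libraries, each with its own depth and cells.

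**Figure D2:**
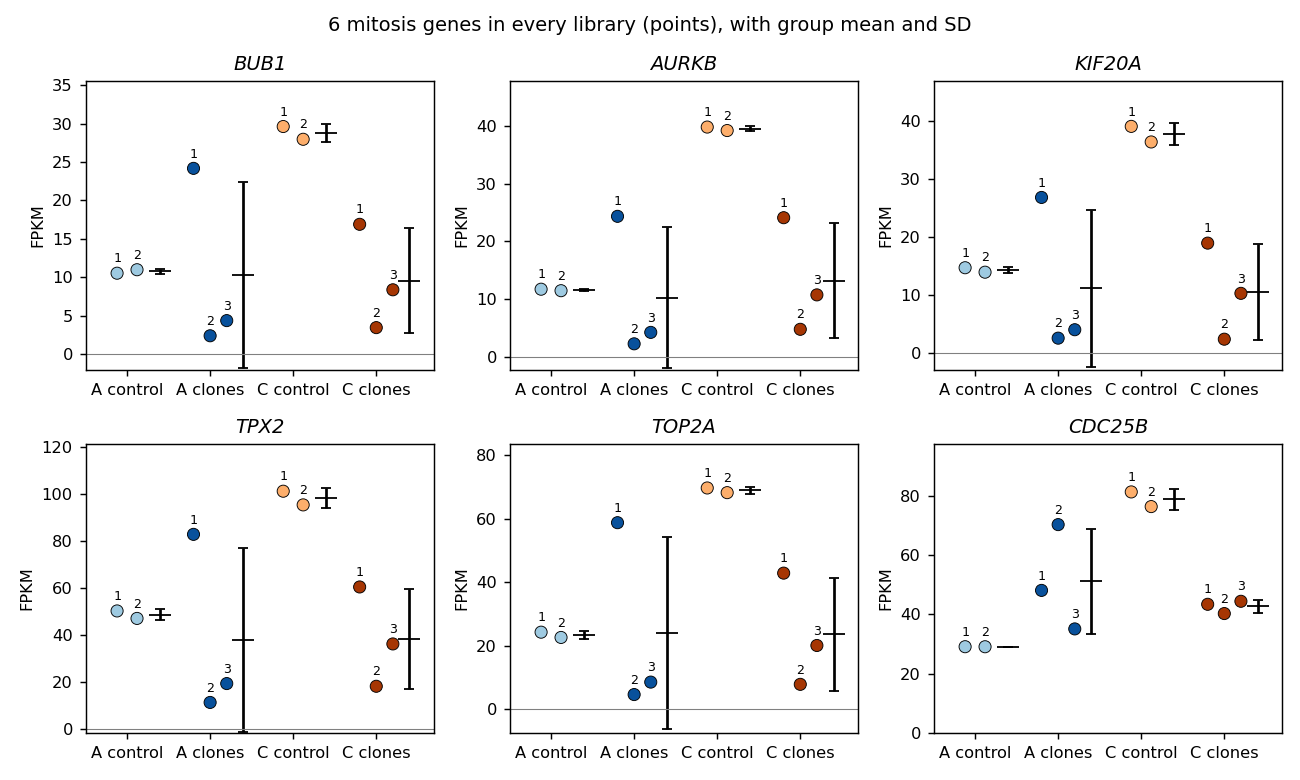
FPKM of 6 mitosis genes in every library (points, numbered by clone or control) with the mean and SD of each group (horizontal mark and bar, which runs below 0 where the SD exceeds the mean). In BUB1, AURKB, KIF20A, TPX2 and TOP2A, VEGFA-LNC clone 1 is above its controls and clones 2 and 3 are below them, and in CDC25B all 3 clones are above.

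PRC1, which bundles microtubules of the central spindle, ECT2, which activates RhoA at the cleavage furrow, and ANLN, a scaffold of the contractile ring, stand for cytokinesis. PRC1 was at 20.7 and 19.9 FPKM in the VEGFA-LNC controls, 39.8, 3.75 and 6.80 in the clones, 45.8 and 46.7 in the VEGFC-LNC controls and 31.8, 8.72 and 17.7 in the clones. ECT2 had the narrowest range of the 53 genes that moved together, 3.28-fold between its extreme libraries. It read 22.0 and 21.7 FPKM in the VEGFA-LNC controls, 26.9, 10.5 and 10.5 in the clones, 31.5 and 34.4 in the VEGFC-LNC controls and 24.7, 14.5 and 17.9 in the clones. The 10 libraries had the same order in ECT2 as in PRC1, with VEGFA-LNC clones 2 and 3 nearly equal in ECT2.

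**Figure D3:**
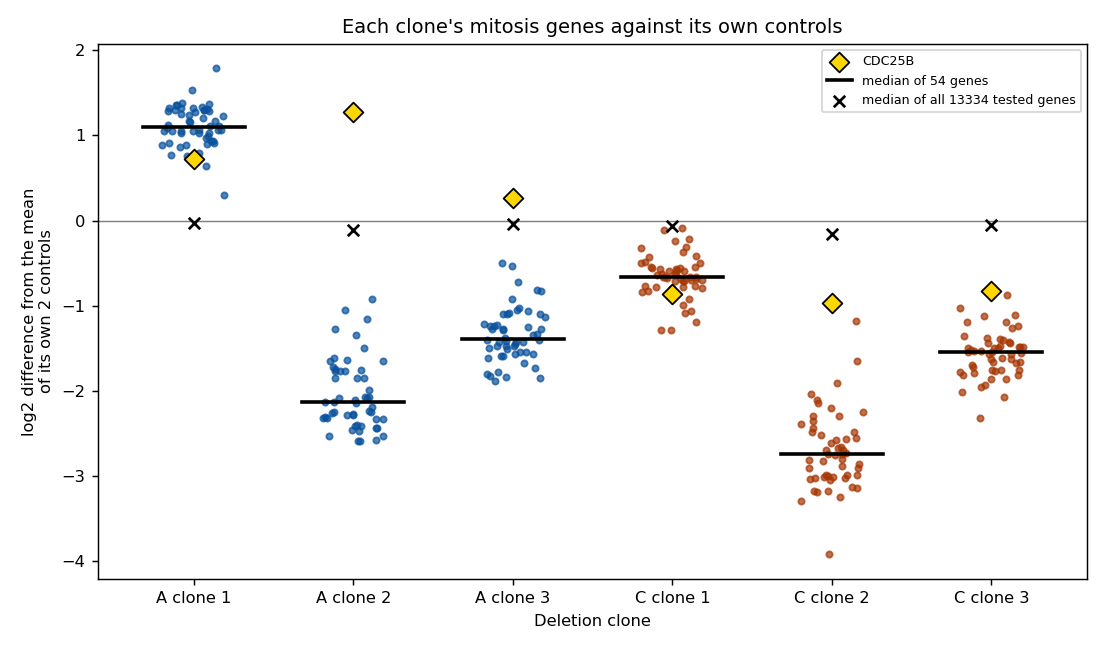
Difference of each deletion clone from the mean of its own 2 controls on the log2(FPKM + 0.1) scale, with a point for each of the 54 genes, a bar for their median, a diamond for CDC25B and a cross for the median of all 13334 tested genes. The member medians are 1.10, -2.13 and -1.39 in the VEGFA-LNC clones and -0.66, -2.74 and -1.55 in the VEGFC-LNC clones, while the crosses stay between -0.16 and -0.03.

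CDC25B departed from the arrangement of the VEGFA-LNC clones and from the order of the VEGFC-LNC clones that the other members shared. CDC25B, the phosphatase that starts CDK1 at the centrosome, read 29.1 and 29.0 FPKM in the VEGFA-LNC controls, 48.0, 70.2 and 35.1 in clones 1, 2 and 3, 81.2 and 76.3 in the VEGFC-LNC controls and 43.4, 40.2 and 44.4 in the VEGFC-LNC clones. In every VEGFA-LNC clone it stood above both controls, and in every VEGFC-LNC clone below both. All 6 clones lay between the levels of the VEGFA-LNC and the VEGFC-LNC controls. Against all 4 controls together its log2 FC went from 0.75 to 0.037 for the VEGFA-LNC deletion and from -0.88 to -0.17 for the VEGFC-LNC deletion. Of all tested genes, 15.3% had all VEGFA-LNC clones above both controls, and of the members 1 had. Clone 2 of the VEGFA-LNC deletion, which was the lowest library of 48 other members, held more CDC25B than any other deletion clone. Its group means were 29.1 ± 0.0085 (SD, n = 2), 51.1 ± 17.8 (SD, n = 3), 78.8 ± 3.49 (SD, n = 2) and 42.7 ± 2.16 (SD, n = 3). Its correlation with the median profile of the other members was 0.26 over the 10 libraries, where those of the other 53 were between 0.93, for PTTG1, and 0.999. The 12 rows of CDC25B gave a log2 FC of 0.75 to 0.76 for the VEGFA-LNC deletion, -0.89 to -0.87 for the VEGFC-LNC deletion and 1.41 to 1.44 between the control sets.

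The first comparison asks how the VEGFA-LNC deletion changed these genes. In the fit across all genes (limma, where a call needs an FC of 1.5 or more and an FDR below 0.05), 367 of 13334 genes (2.75%) were called, and none of the 54. At an unadjusted p under 0.05 there was 1 member, CDC25B, of 54, against 19.8% of all genes, and voom on the recovered reads also called none. The median log2 FC of the members was -0.77, against -0.06 over all tested genes, with 53 lower and 1 higher, a range of -1.11 for KIF20A to 0.75 for CDC25B, and FDRs by limma from 0.136 to 0.941. The SD of log2 values between the 3 clones, with a median of 1.71 over the members against 0.29 over all tested genes, was larger than that difference. Without clone 1, 10 members were called, all lower (ECT2, TACC3, KIF14, NEK2, CENPF, PRC1, NUF2, AURKA, CDCA8 and TPX2), while the calls over all genes came to 13.0%. The median of the members was then -1.73. Without clone 2 it was -0.095, with 38 members lower, 16 higher and none called, and without clone 3 it was -0.47, with 52 lower, 2 higher and none called. Against all 4 controls together the median was -1.44.

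The VEGFC-LNC deletion was compared with its controls in the same way, with 63 genes called of 13334 (0.472%) and none of the 54. At an unadjusted p under 0.05 there were 6 members (CDC25B, CKAP2, TACC3, NCAPG, NUF2 and CDCA2) of 54, against 18.8% of all genes, and voom again called none. Fitted by limma on the libraries of this set alone, 49 of 54 members and 3179 of 13334 genes were under that p. None of the members was called there either, with a lowest FDR by limma of 0.065. The members had a median log2 FC of -1.64, against -0.09 over all tested genes, and all 54 were lower, from -2.26 for KIF20A to -0.82 for ECT2. KIF20A had a log2 FC of -2.26 with an SE of 1.02, and ECT2 one of -0.82 with an SE of 0.39. The median SE of the members was 0.90. Leaving out clone 1 of the VEGFA-LNC deletion, which narrows the common estimate of the spread, gave 8 calls among the members, all lower (NUF2, TACC3, NCAPG, CKAP2, CDCA2, NUSAP1, ECT2 and CENPF), where 8.68% of all genes were called. Against all 4 controls together the median was -0.98, which is closer to 0 than that of the VEGFA-LNC deletion, while against its own controls it was farther from 0.

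Between the control sets, which the labels tell apart only by the lncRNA of the set, 1690 genes were called (12.7%). Of these, 389 were higher and 1301 lower in the VEGFC-LNC controls. With libraries scaled by the median of ratios the split was 579 to 917, and that scaling moved the median log2 FC of all genes from -0.11 to -0.0051. Of the members 1 was called, CDC25B, with a log2 FC of 1.44, an SE of 0.26 and an FDR by limma of 0.0139, higher in both VEGFC-LNC controls than in either VEGFA-LNC control. At an unadjusted p under 0.05 there were 2 members of 54, CDC25B and MELK, against 31.3% of all genes. The call of CDC25B was lost when any 1 of the 4 control libraries was left out, with FDRs of 0.0923 to 0.12, and with each pair averaged to 1 sample (FDR of 0.491). The median log2 FC of the 54 genes was 1.33, against -0.11 over all tested genes, and all 54 were higher, from 0.59 for ECT2 to 2.09 for KIF15. Fitted on the 4 control libraries alone, which takes the spread from these close pairs and leaves the clones out, 54 of 54 members and 33.0% of all genes were called. Without VEGFA-LNC clone 1 the calls were 10 members, all higher, and 23.0% of all genes.

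**Figure D4:**
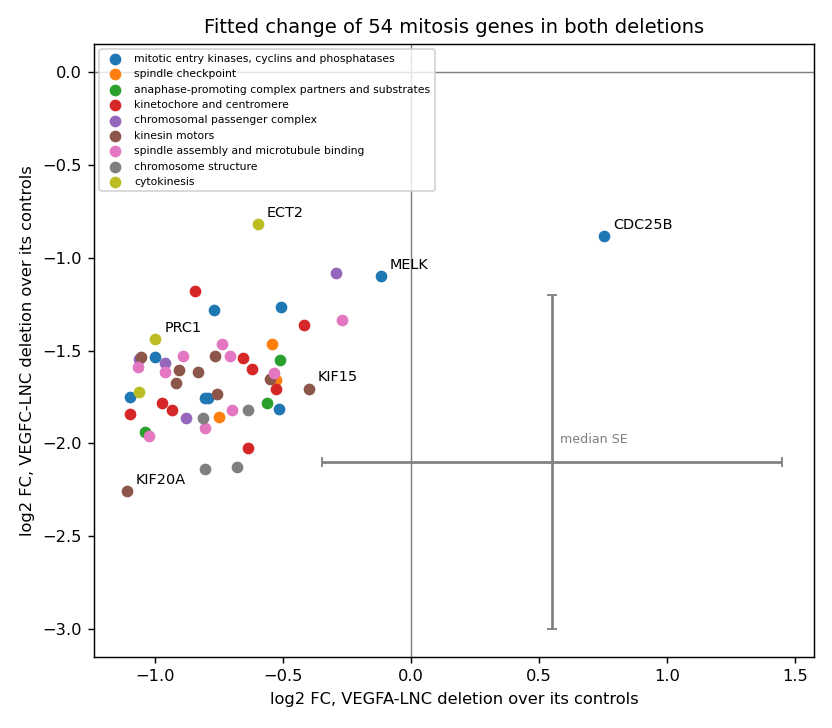
Fitted log2 FC of each of the 54 genes for the VEGFA-LNC deletion (horizontal) and the VEGFC-LNC deletion (vertical), each over its own 2 controls and coloured by role, with the median SE of 0.90 as a cross. CDC25B at 0.75 is the single gene right of 0, and all 54 genes lie below 0 on the vertical axis.

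The difference between the deletions was tested as the VEGFC-LNC effect minus the VEGFA-LNC effect. Of all genes 194 were called (1.45%), and 86 with the replicate number as a block, and in either fit none of the members was. At an unadjusted p under 0.05 there was 1 member, CDC25B, of 54, against 18.6% of all genes. CDC25B had a difference of -1.64, an SE of 0.34 and an FDR by limma of 0.059, and voom called no member. The median difference of the members was -0.93, against -0.04 over all tested genes, with a median SE of 1.27. All 54 differences were below 0. Without VEGFA-LNC clone 1 the median was 0.017 and the direction turned for 5 of the 11 genes named with all their values (CENPF, ECT2, PRC1, TOP2A and TPX2). CDC25B was called in the difference when any 1 of the VEGFA-LNC clones was left out, with an FDR of 0.0396 without clone 1 (5.2% of all genes called), 0.0329 without clone 2 (1.38%) and 0.0279 without clone 3 (0.877%).

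The median log2 FC of the roles lay between -1.0 for cytokinesis and -0.55 for the spindle checkpoint in the VEGFA-LNC deletion, and between -1.99 for chromosome structure and -1.44 for cytokinesis in the VEGFC-LNC deletion. Between control sets the role medians ran from 1.05 for the chromosomal passenger complex to 1.54 for the spindle checkpoint. Whether the roles differed was not tested.

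Of 52 other mitosis genes, all tested, none was called in either deletion. Their median difference from the controls was 1.15, -1.32 and -0.86 in VEGFA-LNC clones 1, 2 and 3 and -0.60, -2.14 and -1.50 in the VEGFC-LNC clones. The arrangement of the members in the VEGFA-LNC set was found in 49 of them, and 48 were lower in all VEGFC-LNC clones than in both controls. Between the control sets HMGB2, a chromatin protein, was called higher (log2 FC of 2.34, SE of 0.50). KIFC3, a kinesin with a C-terminal motor, was called lower. Calls in this list and those below count the 2 controls of a set as 2 samples. Whether these are separate cultures is not given. TUBA1B and TUBB4B, tubulins of high level in all libraries, were not called. TUBA1B read 581.9 and 588.6 FPKM in the VEGFA-LNC controls and 1365.6, 566.6 and 633.8 in the clones, so that only clone 1 of this set stood far from the controls. In the VEGFC-LNC set it read 1154.1 and 1160.2 in the controls and 614.5, 273.1 and 487.4 in the clones, all far below.

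Genes of G1 and S phase were arranged like the members with smaller differences. In 22 tested cyclins, kinases and replication genes the median difference was 1.06, -1.05 and -0.62 in the VEGFA-LNC clones and -0.42, -1.60 and -1.24 in the VEGFC-LNC clones, and 16 had the arrangement of the members in the VEGFA-LNC set. None was called in a deletion. CDC45, a part of the replicative helicase, was called higher in the VEGFC-LNC controls, and CCND1, the G1 cyclin, lower. PCNA, the sliding clamp of DNA polymerase, was not called.

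The 17 subunits and partners of the anaphase-promoting complex, most of which are made throughout the cell cycle, kept closer to 0, with medians of 0.14, -0.23 and -0.12 in the VEGFA-LNC clones and -0.15, -0.53 and -0.32 in the VEGFC-LNC clones. The scaffold subunit ANAPC4 was called higher and ANAPC16 lower between the control sets, and ANAPC5 and UBE2S were not called.

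Regulators of mitotic transcription (the MuvB and pocket proteins, E2F and MYB factors, FOXM1 and NF-Y subunits, 23 tested of 24) had medians of 0.28, -0.50 and -0.40 in the VEGFA-LNC clones and -0.29, -0.64 and -0.46 in the VEGFC-LNC clones. These medians cover unlike genes. The arrangement of the members in the VEGFA-LNC set was found in 10 of the 23, against 15.0% of all tested genes. In the VEGFC-LNC set 13 were lower in all clones than in both controls, against 30.6%. LIN37, a MuvB subunit needed for repression by DREAM, was called lower in the VEGFA-LNC deletion (log2 FC of -0.70, SE of 0.13, FDR by limma of 0.0315) and between the control sets. It read 10.3 and 9.61 FPKM in the VEGFA-LNC controls, 5.67, 6.57 and 6.11 in the clones, and 4.47 to 4.93 in the 5 VEGFC-LNC libraries. Its clones thus stood together below both controls, unlike those of the members. The calls of LIN37 rest on counting each control pair as 2 samples. The repressors E2F4 and E2F7 were not called.

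CDK inhibitors and p53 targets had medians of the opposite sign to those of the members in all 6 clones. Over 22 tested genes the median difference was -0.38, 0.27 and 0.33 in the VEGFA-LNC clones and 0.41, 0.54 and 0.73 in the VEGFC-LNC clones. Between the control sets 11 were called lower in the VEGFC-LNC controls (CDKN1A, MDM2, GDF15, SESN2, GADD45A, ZMAT3, PLK3, BTG2, FAS, RRM2B and DDB2). CDKN1B was called higher, where all 54 members were higher. Of all 13334 tested genes 12.7% were called there, 1301 lower and 389 higher, and this list was chosen with earlier results known. CDKN1A, the p21 inhibitor of cyclin-dependent kinases, read 165.2 and 174.2 FPKM in the VEGFA-LNC controls and 93.5, 170.7 and 210.3 in the clones, against 40.5 and 38.8 in the VEGFC-LNC controls and 52.4, 66.5 and 104.2 in the clones. For CDKN1A the VEGFA-LNC clone 1, highest in mitosis genes, was the lowest of its set, and each VEGFC-LNC clone was above both controls. GDF15, a secreted p53 target, was called higher in the VEGFC-LNC deletion (log2 FC of 0.92, SE of 0.15, FDR by limma of 0.0467), and CDKN1B, the p27 inhibitor, was called lower (log2 FC of -0.99, SE of 0.14, FDR by limma of 0.0269). Both were also called in the difference between the deletions, GDF15 at 1.14 and CDKN1B at -1.43 on the log2 scale. These calls too count each control pair as 2 samples. GDF15 read 109.8, 126.1 and 93.9 FPKM in the VEGFC-LNC clones. These levels lay between those of their own controls (56.5 and 58.8) and of the VEGFA-LNC controls (183.5 and 188.5). For CDKN1B the VEGFA-LNC clones were at 12.7, 13.0 and 11.6 FPKM against 9.48 and 8.73 in the controls, and the VEGFC-LNC clones at 7.38, 7.95 and 6.13 against 14.6 and 13.8. Its clones stood above their controls in the first deletion and below them in the second, as those of CDC25B did.

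**Figure D5:**
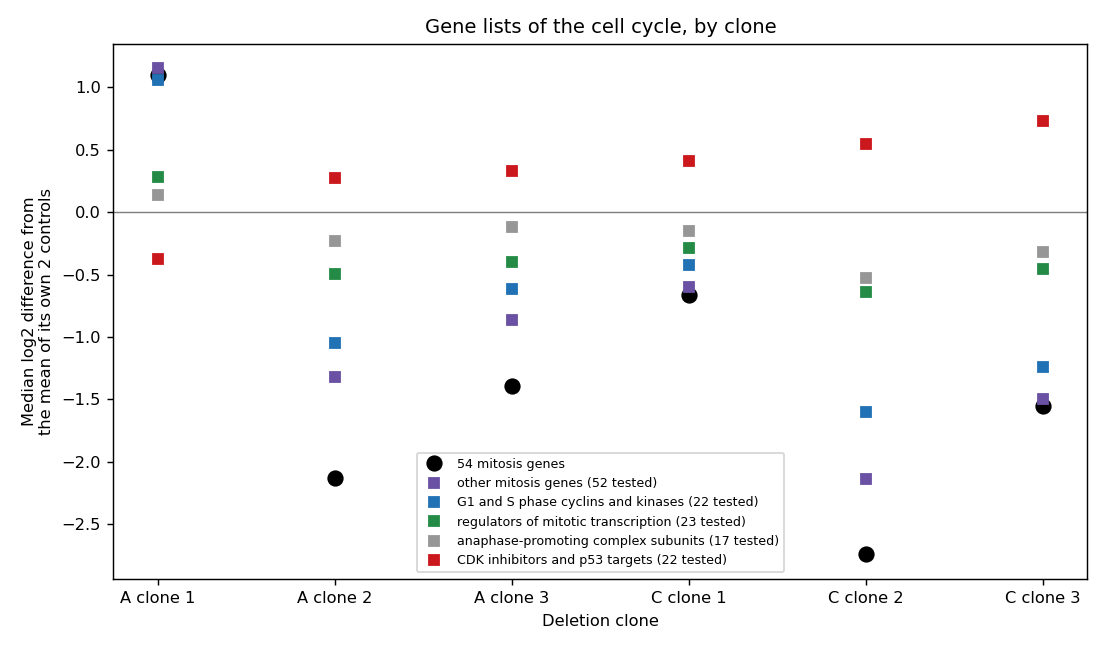
Median log2 difference from the mean of its own 2 controls in each deletion clone, for the 54 mitosis genes and 5 other lists (tested genes given in the key). CDK inhibitors and p53 targets stand at -0.38 in VEGFA-LNC clone 1 and between 0.27 and 0.73 in the other clones, opposite to the mitosis genes, and subunits of the anaphase-promoting complex stay between -0.53 and 0.14.

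The tested genes outside the members whose profile over the 10 libraries was most like their median were PRR11, ERCC6L, HJURP, RACGAP1, ORC1, WDHD1, KNL1, MCM4, CENPO and MCM10, with Pearson's r from 0.992 to 0.998. Of 13280 tested genes outside the members, 114 (0.858%) had an r over 0.97, and 48 of the 54 members did. All these genes were read from the same 10 libraries, each with its own depth and cells, so that these are descriptions over 10 points.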

How the data were processed

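The members and gene lists were chosen with earlier results of these data known. The authors deposited FPKM values per RefSeq transcript on hg19 for 10 libraries. Trim Galore (version 0.4.4), STAR (version 2.5.4b) and featureCounts are named in the submitters' processing notes, and how this table was made is not given in the sources used here. FPKM multiplied by transcript length gave whole reads in every library (tolerance 0.1 reads), and hence the depth, 6743973 to 24197629 reads. This covers counting error only.

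Per symbol the row of highest mean was kept. Genes with FPKM times kilobases of at least 1 in at least 2 libraries were fitted as log2(FPKM + 0.1) with limma (version 3.58.1, R 4.3.3; lmFit, eBayes with trend) in 4 groups, and FDRs follow Benjamini and Hochberg over all tested genes. The fit was tested on simulated counts with the same spread in every library and no differences between clones. That test does not cover the spread between clones seen here. With all values were named the member of highest mean in each role and of lowest and highest log2 FC in each comparison. Of other lists, called genes and the 2 of highest mean were named, and marker genes listed at 0 beside them. Same-numbered deletion clones correlated in their deviations (r = 0.553, 0.409 and 0.219), while clones and own controls did not pair (-0.043 to 0.047). Clones 2 and 3 also correlated across numbers. The r was 0.263 for VEGFA-LNC clone 2 with VEGFC-LNC clone 3, and 0.183 for VEGFA-LNC clone 3 with VEGFC-LNC clone 2. Clone 1 of either deletion ran against clones 2 and 3 of the other (r of -0.54 to -0.30). The main fit used no pairing, also for the difference of the deletions. An alternative fit took the replicate number as a block over all 10 libraries, controls included. Why clones of the 2 deletions deviate together is not given. Counts of reads in Gencode genes were not used here.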

Additional observations from a re-analysis of the deposited data

Results flagged for a closer look

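CDC25B was singled out because every VEGFA-LNC clone lay above its controls and every VEGFC-LNC clone below. Against all 4 controls together its log2 FC was 0.037 and -0.17, in place of 0.75 and -0.88 against its own controls. The VEGFC-LNC effect minus the VEGFA-LNC effect was -1.64 on the log2 scale (limma, FDR of 0.059, SE of 0.34), and the FDR ranged from 0.0279 to 0.913 over the alternatives.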

How the results depend on the processing

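The member medians kept their sign in every alternative except the difference of the deletions without VEGFA-LNC clone 1. With all 4 controls pooled, the member median moved from -0.77 to -1.44 (VEGFA-LNC deletion) and from -1.64 to -0.98 (VEGFC-LNC deletion), which turned the order of the deletions, and the VEGFA-LNC deletion had 29 calls over all genes. The count was 20 with only the libraries compared, 654 without a filter, 551 by voom, 151 with the replicate block and 0 with control pairs averaged (831 at an unadjusted p under 0.05). The VEGFC-LNC deletion had 26, with the block 20 and averaged 1. The control sets had 4401 calls (54 members) with only the libraries compared, and 0 (no member) averaged. Their member median was 1.35 and 1.23 at pseudocounts of 0.01 and 1, and 1.44 under both scalings. The difference had 329 without a filter, 86 with the block and 0 averaged. Except for these counts over all genes, the block changed no call of a count or a named member.

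Leaving out 1 library at a time, all-gene calls ran from 6 to 1732 (VEGFA-LNC deletion), 5 to 1158 (VEGFC-LNC deletion), 33 to 3068 (control sets) and 5 to 694 (difference). Member calls ran from 0 to 10, 0 to 8, 0 to 10 and 0 to 1, and member medians from -1.73 to -0.10, -2.19 to -1.11, 1.31 to 1.34 and -1.51 to 0.017. The lowest all-gene counts came without a control and the highest without VEGFA-LNC clone 1. For the VEGFA-LNC deletion KIF15 ran from -1.37 to 0.22 and UBE2C from -1.51 to 0.15. For the difference CENPF ran from -1.69 to 0.18, ECT2 from -0.45 to 0.23, PRC1 from -1.14 to 0.55, TOP2A from -1.80 to 0.023 and TPX2 from -1.25 to 0.20. The cause was not tested.

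In the window from 100 bases before the start to 50 after, 34 of 57 member windows (59.6%) held the CHR letters, against 7.37% of all windows. CCAAT stood in 31 (54.4%, against 21.3%), and 24 held both (42.1%, against 1.86%).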
